A study of Mus musculus with 14 samples.

Results

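The effect of the TRACK transgene without dietary vitamin A was measured in kidney cortex of mice, in 7 of the 14 libraries of the study: 4 of transgenic mice on a vitamin A deficient diet (TRACK-VAD 1 to 4) and 3 of wild-type mice on the same diet (WT-VAD 1 to 3). The libraries of each group were taken by their labels. TRACK mice carry GGT-HIF1A_M3, a mutant human HIF1A that stays active in the presence of oxygen, behind a gamma-glutamyl transferase promoter, which as background is active in the proximal tubule. All mice were of the C57BL/6 background, so the groups share strain and diet and differ in genotype. Per the labels' protocols each diet was started 2 weeks past weaning and tissue was collected after 24 weeks. The sources used here give neither the sex nor an age in days. The remaining libraries, 4 TRACK and 3 WT on regular chow with sufficient vitamin A, entered the fit and are used below to set the deficient-diet effect beside the chow effect. Each library is labelled as a biological replicate and the labels speak of 4 mice per cohort. By the lane number in their labels, TRACK-VAD 1 to 3 come from lane 5 and TRACK-VAD 4 and WT-VAD 1 to 3 from lane 6. The protocol speaks of 4 samples to a lane while 10 libraries carry number 5, so libraries with 1 lane number need not share a run. Genotype and lane number are therefore nearly confounded, and TRACK-VAD 4 is the single transgenic library that shares a lane number with the wild-type libraries.

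As background, HIF1A is the subunit of the hypoxia-inducible factor whose level oxygen sets. With oxygen it is hydroxylated, bound by the von Hippel-Lindau protein and degraded. When stable, it pairs with ARNT, binds short DNA motifs with the core ACGTG or GCGTG and raises genes of glucose uptake, glycolysis, pH control and iron and vessel supply. Loss of von Hippel-Lindau function stabilises HIF in most clear cell renal carcinomas, and a TRACK mouse puts an active HIF1A into the tubule cells from which that tumour is thought to arise. Vitamin A acts mostly as retinoic acid, which binds nuclear receptors of the RAR and RXR families, and the kidney takes up retinol-binding protein from the filtrate through megalin.

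Values are deposited FPKM, read levels corrected for transcript length and for library size. They were divided here by a scale factor per library of 0.9 to 1.18 and called scaled FPKM. A gene was called higher or lower when limma, on log2(scaled FPKM + 1), gave an adjusted p (Benjamini-Hochberg) of no more than 0.05 over the 12251 genes tested. FPKM hold no read counts, so the absolute depth is unknown. Relative depth estimated from low genes was 0.778, 0.88, 1.03 and 0.943 of the mean in TRACK-VAD 1 to 4 and 0.844, 1.09 and 1.07 in WT-VAD 1 to 3. Kidney cortex was recognisable in all 7 libraries: the megalin gene Lrp2 of the proximal tubule had at least 27.7 scaled FPKM, the loop of Henle gene Umod at least 1272, and the podocyte gene Podxl at least 40.9. Mouse Hif1a (chromosome 12, 73901375 to 73947530) was at 23.9, 21.4, 30.6 and 27.6 scaled FPKM in TRACK-VAD 1 to 4 and 27, 22.8 and 32.5 scaled FPKM in WT-VAD 1 to 3. The groups overlapped (log2 fold change -0.08 ± 0.13 (SE), limma adjusted p = 0.707, or 0.12 without scaling). As background, the transgene is a human sequence, so the mouse gene does not check the genotype labels. Loci are given as in the authors' table, counted from 1, and lie on GRCm38.

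TRACK-VAD kidneys had higher levels of most HIF target genes measured and lower levels of most fatty acid oxidation genes than WT-VAD kidneys on the same diet. Most genes of tubular injury, macrophages and the interferon response were higher as well, and 13 of 29 proximal tubule transporter genes were lower. Limma called 2707 of 12251 genes (22.1%), 1380 of them higher (11.3%) and 1327 lower (10.8%) in TRACK-VAD. Of these, 276 rose (2.25%) and 121 fell (0.988%) by at least 1 on the log2 scale. With the 7 deficient-diet libraries alone, so without the spread of the chow libraries, 352 genes were higher and 216 lower. In 3493 genes (28.5%) the 4 TRACK-VAD values all lay above or all below the 3 WT-VAD values, and 2470 of these were also called (20.2%). The median gene was at -0.01 (log2). Without scaling the median moved to 0.18 and 82.7% of the calls were higher, against 51% with scaling, so changes below are relative to the median gene. A fit with lane as a term rests the contrast on TRACK-VAD 4 against WT-VAD 1 to 3. It called 221 genes (1.8%), 166 higher (1.35%) and 55 lower (0.449%), and 217 of them were called in the same direction without that term. The difference between TRACK-VAD 4 and the mean of WT-VAD, all of lane 6, had the same sign as the call in 1380 of 1380 higher and 1326 of 1327 lower genes. TRACK-VAD 4 is one of the libraries that made those calls. In the authors' deposited table of this comparison, 3964 of 12106 of the genes tested here had an adjusted p at or under 0.05, and 2512 of the 2707 calls were among them with the same direction and 1 with the opposite one. When 1 library was left out, the number higher fell to 877, 819 and 791 without WT-VAD 1, 2 and 3, and the number lower to 758, 751 and 839 without these and to 798 and 837 without TRACK-VAD 1 and 2.

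The 4 TRACK-VAD libraries fell into unlike pairs. Across the 12251 genes, the correlation between TRACK-VAD libraries ran from 0.957 to 0.991 and between libraries within each other group from 0.988 to 0.992. Genes are not independent replicates. TRACK-VAD 3 and 4, of different lane numbers, correlated at 0.991, TRACK-VAD 1 and 2 at 0.985, and TRACK-VAD 2 and 3, of equal lane number, at 0.957. The first principal component held 49.5% of the variance and placed TRACK-VAD 1 to 4 at 28.9, 44.5, 5.24 and 9.43, while the 4 TRACK libraries on chow lay between 13.8 and 19.6. The median SD of a gene was 0.19 (log2) in TRACK-VAD against 0.118 in TRACK, 0.115 in WT and 0.136 in WT-VAD. An SD over 1 was reached by 95 genes (0.775%) in TRACK-VAD against 20 in TRACK, 19 in WT and 15 in WT-VAD. TRACK-VAD 2 stood farthest apart, with 268 genes at least 1 (log2) above and 189 below the mean of the other 3 libraries. Without TRACK-VAD 1 and 2, an alternative chosen after the data were seen, 1284 genes were called (10.5%), 740 higher (6.04%) and 544 lower (4.44%). Of these, 1140 were among the 2707 in the same direction.

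**Figure D1:**
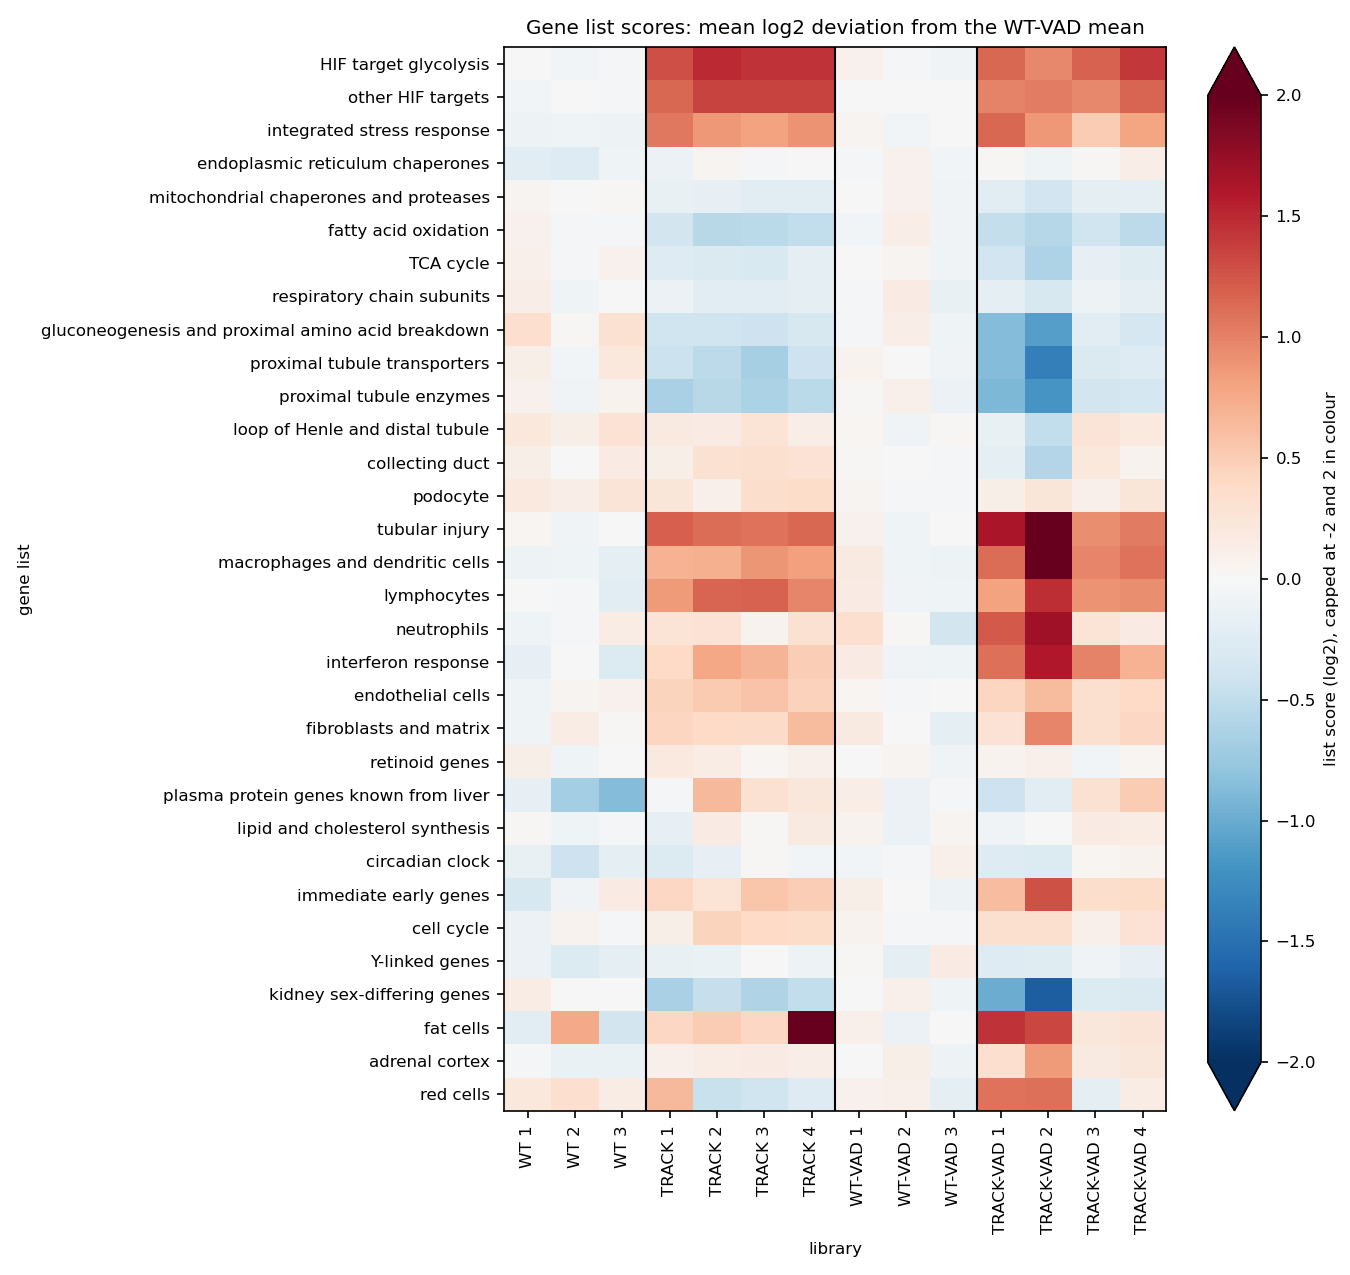
Score of each gene list in each of the 14 libraries, as the mean over list genes of the log2 deviation from the WT-VAD mean; red is higher and blue lower, and vertical lines part WT, TRACK, WT-VAD and TRACK-VAD. Both HIF target lists are red in all 4 TRACK-VAD libraries, whereas the tubular injury list reads 1.63, 2.67, 0.92 and 1.04 and the proximal tubule transporter list -0.86, -1.37, -0.28 and -0.25 in TRACK-VAD 1 to 4.

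The genes with the largest increases included known HIF targets and genes better known from other tissues. The 12 largest increases and the 12 largest decreases were chosen among called genes without overlap between the groups. A call and a lack of overlap are therefore no further result for them. The largest was in 2610528A11Rik (chromosome 14, 37102140 to 37114022), which encodes the secreted ligand of the receptor GPR15. It read 84.5, 53.7, 69.3 and 116 scaled FPKM in TRACK-VAD 1 to 4 and 0.674, 0.326 and 0.200 scaled FPKM in WT-VAD 1 to 3. All transgenic values were far above all wild-type ones (log2 fold change 5.83 ± 0.21 (SE), limma adjusted p = 3.15e-09). Ndufa4l2 (chromosome 10, 127514939 to 127517152), a HIF-induced mitochondrial protein related to a respiratory chain subunit, read 71.7, 68.4, 82.9 and 118 scaled FPKM in TRACK-VAD 1 to 4 and 4.26, 3.18 and 1.85 scaled FPKM in WT-VAD 1 to 3. The groups were again apart, with TRACK-VAD 4 highest (log2 fold change 4.41 ± 0.19 (SE), limma adjusted p = 1.69e-08). Ankrd37, an ankyrin repeat gene induced by HIF, read 30.6, 31.4, 16.8 and 27.3 in TRACK-VAD 1 to 4 against 0.937, 0.641 and 1.86 in WT-VAD 1 to 3 scaled FPKM (log2 fold change 3.68 ± 0.23 (SE), limma adjusted p = 4.04e-07). Slc16a3, the lactate exporter MCT4, read 18.7, 16.2, 13.6 and 22 in TRACK-VAD 1 to 4 against 0.995, 0.680 and 0.235 in WT-VAD 1 to 3 scaled FPKM (log2 fold change 3.52 ± 0.17 (SE), limma adjusted p = 3.72e-08). Mgarp, a mitochondrial protein also induced by hypoxia, read 9.53, 9.48, 6.87 and 12 in TRACK-VAD 1 to 4 against 0.190, 0.0793 and 0.0717 in WT-VAD 1 to 3 scaled FPKM (log2 fold change 3.21 ± 0.14 (SE), limma adjusted p = 1.69e-08). In these 5 genes every TRACK-VAD library lay above every WT-VAD library, which their choice required. Wild-type levels of 2610528A11Rik and Slc16a3 were under 1 FPKM in every library, so both passed the filter only through transgenic libraries. Mgarp was under 1 scaled FPKM in every WT-VAD library. With lane as a term the log2 fold change of 2610528A11Rik was 6.40.

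The promoter sequences of 4 of these genes are shown because their levels separated the groups in all libraries and because the core motif that HIF binds can be read in them. They are the 4 of the 12 largest increases that have a single window with a match; Sprr1a and Gc have a single window with none, and Havcr1 and Igfbp2 have several windows. Each is the 250 bases before the RefSeq transcript start (GRCm38.p6), 5′ to 3′ in the direction of the gene, with matches to ACGTG or GCGTG on either strand in capitals; on the opposite strand these read CACGT and CACGC. They lie at chr14:37110102-37110351 on the minus strand, chr8:45999851-46000100 on the minus strand, chr11:120948817-120949066 on the plus strand and chr3:51396548-51396797 on the minus strand, in the order printed.
2610528A11Rik: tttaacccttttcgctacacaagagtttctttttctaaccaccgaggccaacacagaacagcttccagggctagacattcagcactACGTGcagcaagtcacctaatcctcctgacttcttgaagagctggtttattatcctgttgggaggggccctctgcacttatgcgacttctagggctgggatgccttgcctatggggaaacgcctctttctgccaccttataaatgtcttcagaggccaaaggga
Ankrd37: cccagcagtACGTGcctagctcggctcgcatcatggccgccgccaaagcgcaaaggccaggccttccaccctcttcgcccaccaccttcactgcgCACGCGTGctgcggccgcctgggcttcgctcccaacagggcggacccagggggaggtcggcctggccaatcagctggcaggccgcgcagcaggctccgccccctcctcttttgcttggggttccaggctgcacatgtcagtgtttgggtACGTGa
Slc16a3: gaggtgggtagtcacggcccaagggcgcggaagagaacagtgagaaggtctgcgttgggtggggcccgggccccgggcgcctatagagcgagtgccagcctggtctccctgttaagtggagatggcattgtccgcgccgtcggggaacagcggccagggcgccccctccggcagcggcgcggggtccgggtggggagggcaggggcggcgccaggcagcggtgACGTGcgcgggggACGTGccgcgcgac
Mgarp: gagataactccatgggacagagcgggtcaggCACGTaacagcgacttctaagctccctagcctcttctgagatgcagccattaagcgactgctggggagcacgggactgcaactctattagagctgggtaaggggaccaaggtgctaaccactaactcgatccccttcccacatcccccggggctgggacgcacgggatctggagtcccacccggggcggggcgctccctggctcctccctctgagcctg
The window held 1 match in 2610528A11Rik, 4 in Ankrd37, of which a pair overlaps on opposite strands, 2 in Slc16a3 and 1 in Mgarp. Of the 12251 genes tested, 9486 matched the RefSeq table by symbol and 7507 had a single window, of which 57% held at least 1 match. The share was 51.4% among genes higher in TRACK-VAD, 45.2% among those higher by at least 1 (log2) and 56.4% among lower genes. It was 75% in the 12 HIF target glycolysis genes and 86.7% in the 15 other HIF targets with a single window. A match is a description of the letters and not a measured binding site.

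The other genes among the 12 largest increases were of varied function. Defb19, a beta-defensin, read 37.8, 36.9, 42.8 and 70.9 scaled FPKM in TRACK-VAD 1 to 4 and 1.53, 1.44 and 1.66 scaled FPKM in WT-VAD 1 to 3 (log2 fold change 4.19 ± 0.18 (SE), limma adjusted p = 1.69e-08). Apoc3, an apolipoprotein that slows triglyceride clearance and is known from liver and gut, read 389.7, 269, 808 and 1187 in TRACK-VAD 1 to 4 against 31.4, 24.4 and 23.5 in WT-VAD 1 to 3 scaled FPKM (log2 fold change 4.37 ± 0.37 (SE), limma adjusted p = 1.09e-05). TRACK-VAD 3 and 4 were the highest for Apoc3, and no library overlapped the other group. Igfbp2, which binds insulin-like growth factors, had a mean of 40.0 ± 20.4 scaled FPKM (SD, n = 4) against 1.95 ± 0.525 scaled FPKM (SD, n = 3) (log2 fold change 3.64 ± 0.37 (SE), limma adjusted p = 5.51e-05). Sprr1a, of the cornified envelope, rose (log2 fold change 3.35 ± 0.31, adjusted p = 2.26e-05), as did the protease inhibitor gene A2m (3.11 ± 0.30, adjusted p = 3.46e-05). A2m was under 1 FPKM in every wild-type library and passed the filter only through transgenic libraries. Gc, the vitamin D-binding protein, read 249, 202, 62.9 and 133 in TRACK-VAD 1 to 4 against 15.6, 15.5 and 20.7 in WT-VAD 1 to 3 scaled FPKM (log2 fold change 3.0 ± 0.33 (SE), limma adjusted p = 0.000119). For Gc TRACK-VAD 3 was the lowest transgenic library and still above all wild-type ones. Havcr1, the injury marker KIM-1 of the proximal tubule, read 142, 301, 18.1 and 46.0 scaled FPKM in TRACK-VAD 1 to 4 and 2.89, 1.05 and 2.54 scaled FPKM in WT-VAD 1 to 3 (log2 fold change 4.70 ± 0.70 (SE), limma adjusted p = 0.000886). Its groups did not overlap, but its 4 transgenic values were spread from 18.1 to 301, and it was not called with lane as a term (adjusted p = 0.0977).

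Some of the largest decreases were of like size in the 4 TRACK-VAD libraries and others were deepest in TRACK-VAD 1 and 2. Wdfy1 (chromosome 1, 79702262 to 79776143), an endosomal protein with a FYVE domain, read 4.08, 4.36, 2.89 and 2.70 scaled FPKM in TRACK-VAD 1 to 4 and 20.4, 20.4 and 22.1 scaled FPKM in WT-VAD 1 to 3. The transgenic libraries were alike and far below the wild-type ones (log2 fold change -2.30 ± 0.13 (SE), limma adjusted p = 1.70e-07). Cyp2a5, a cytochrome P450 whose reads may be shared with the near-identical Cyp2a4, read 48.6, 48.6, 57.3 and 43.4 in TRACK-VAD 1 to 4 against 264, 254 and 283 in WT-VAD 1 to 3 scaled FPKM (log2 fold change -2.41 ± 0.25 (SE), limma adjusted p = 6.07e-05). Hpd (chromosome 5, 123171807 to 123182727), which encodes 4-hydroxyphenylpyruvate dioxygenase of tyrosine breakdown, read 3.42, 5.17, 23.6 and 7.36 scaled FPKM in TRACK-VAD 1 to 4 and 58.1, 92.0 and 74.1 scaled FPKM in WT-VAD 1 to 3 (log2 fold change -3.10 ± 0.50 (SE), limma adjusted p = 0.00156). Its transgenic values varied widely, and the highest, in TRACK-VAD 3, lay below every wild-type one. Wdfy1 and Cyp2a5 were called with lane as a term (adjusted p = 4.88e-06 and 0.00301) and Hpd was not (0.0704). Pzp, a protease inhibitor of the alpha-macroglobulin family, read 1.74, 0.892, 21.5 and 19.6 scaled FPKM in TRACK-VAD 1 to 4 and 78.3, 57.9 and 54.3 scaled FPKM in WT-VAD 1 to 3 (log2 fold change -3.19 ± 0.74 (SE), limma adjusted p = 0.0103). Cyp4a12a, an omega-hydroxylase of male mouse kidney with a near-identical copy Cyp4a12b, read 5.83, 2.44, 39.7 and 39.6 in TRACK-VAD 1 to 4 against 148, 125 and 89.6 in WT-VAD 1 to 3 scaled FPKM (log2 fold change -3.09 ± 0.69 (SE), limma adjusted p = 0.00895). Alb, the albumin gene, read 3.49, 6.95, 35.5 and 34.6 in TRACK-VAD 1 to 4 against 60.2, 55.4 and 58.4 in WT-VAD 1 to 3 scaled FPKM (log2 fold change -2.01 ± 0.66 (SE), limma adjusted p = 0.0455). In all 3 genes TRACK-VAD 3 and 4 lay between the other transgenic libraries and WT-VAD, and without TRACK-VAD 1 and 2 the log2 fold changes were -1.56, -1.55 and -0.71.

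The remaining 6 of the 12 largest decreases also had no overlap between the groups, which their choice required. They were, as log2 fold changes, Ctxn3 (-2.99 ± 0.33, adjusted p = 0.000112), the adipokine gene Azgp1 (-2.18 ± 0.34, adjusted p = 0.00134), the plasma protein gene Apoh (-2.16 ± 0.36, adjusted p = 0.00202), the acetyltransferase gene Nat8f5 (-2.14 ± 0.29, adjusted p = 0.000512), the major urinary protein gene Mup7 (-2.14 ± 0.51, adjusted p = 0.0113) and Fcamr, a receptor for IgA and IgM (-2.05 ± 0.32, adjusted p = 0.00121). Mup7 was listed at 0 in TRACK-VAD 1 and belongs to a family of near-identical genes, and Nat8f5 also has close copies, so reads may have been divided among copies. Alb was no longer called without TRACK-VAD 1 or 2 or any WT-VAD library (adjusted p = 0.1 to 0.114).

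**Figure D2:**
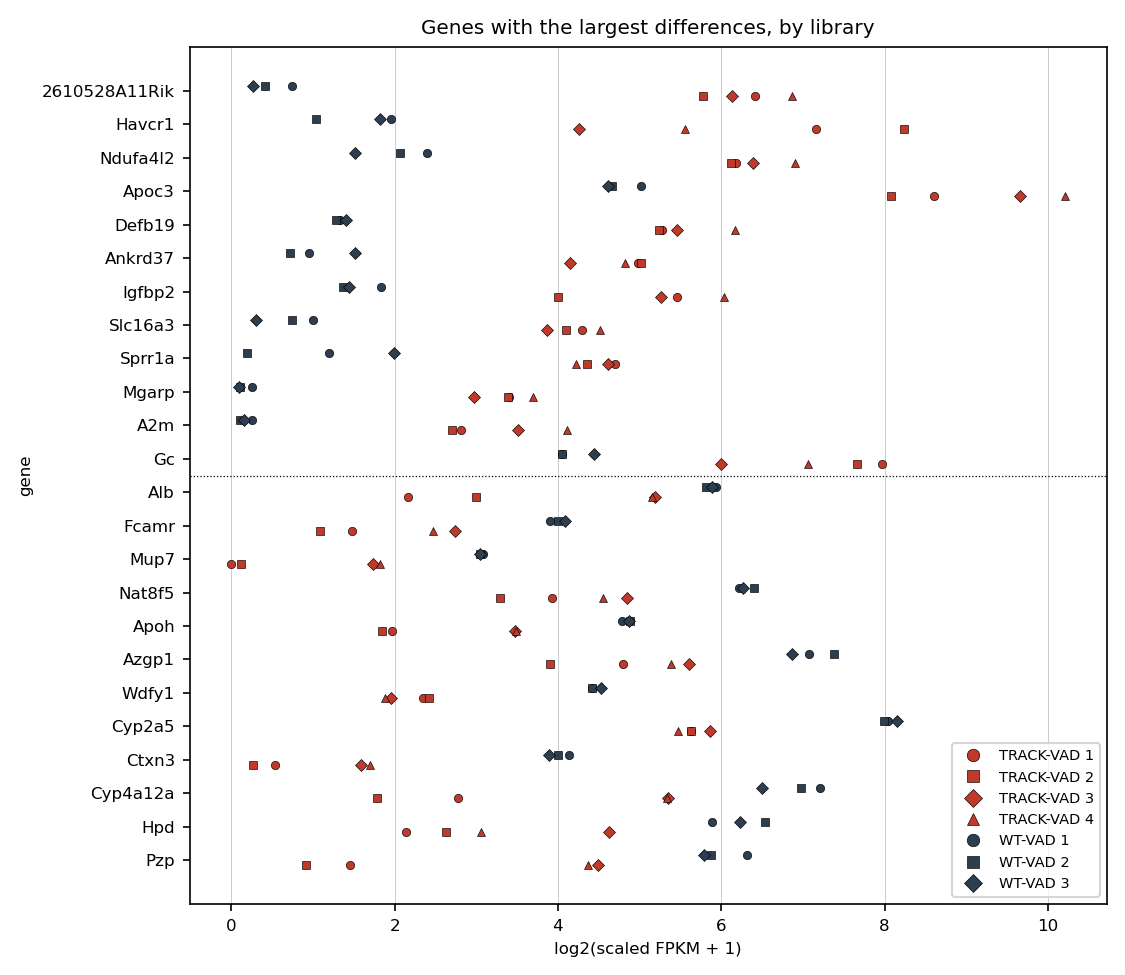
Values of the 12 genes with the largest increases (above the dotted line) and the 12 with the largest decreases, as log2(scaled FPKM + 1); each marker is 1 library, red for TRACK-VAD and dark blue for WT-VAD. Red and blue markers do not overlap in any of the 24 genes, which the choice of genes required, and the red markers are closest together in Cyp2a5.

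Glycolysis genes that HIF controls rose together. Of 21 measured, 16 rose and 1 fell, with a list median of 0.95 (log2). A member under 1 FPKM in every wild-type library could pass the filter only through transgenic libraries, so counts without such members are given here and below. Of the 18 members that reached 1 FPKM in a wild-type library, 14 rose. In the 7 deficient-diet libraries alone, 14 of the 21 were called higher and 0 lower. Over all genes tested 11.3% were called higher and 10.8% lower. Every TRACK-VAD value was above every WT-VAD value for 18 of the 21, against 14.6% of all genes tested. The 21 include 3 members under 1 FPKM in every wild-type library. Pfkp, the platelet-type phosphofructokinase, read 149.9, 128, 134 and 177 in TRACK-VAD 1 to 4 against 27.8, 17.6 and 23.1 in WT-VAD 1 to 3 scaled FPKM (log2 fold change 2.65 ± 0.16 (SE), limma adjusted p = 2.39e-07). Pkm, a pyruvate kinase, read 129, 112, 152 and 197 in TRACK-VAD 1 to 4 against 39.3, 32.5 and 33.8 in WT-VAD 1 to 3 scaled FPKM (log2 fold change 2.01 ± 0.16 (SE), limma adjusted p = 3.90e-06). All transgenic values of both genes lay far above the wild-type ones, and TRACK-VAD 3 and 4 were above TRACK-VAD 1 and 2 for Pkm. Pdk1, the kinase that closes the pyruvate dehydrogenase gate to the TCA cycle, read 78.4, 81.6, 122 and 136 in TRACK-VAD 1 to 4 against 27.4, 21.0 and 25.6 in WT-VAD 1 to 3 scaled FPKM (log2 fold change 2.01 ± 0.18 (SE), limma adjusted p = 1.37e-05), with TRACK-VAD 3 and 4 above TRACK-VAD 1 and 2. The hexokinase gene Hk2 rose from a mean of 0.154 ± 0.118 (SD, n = 3) to 4.96 ± 2.33 scaled FPKM (SD, n = 4) (2.28 ± 0.26, adjusted p = 0.00015). Hk2 was under 1 FPKM in every wild-type library and passed the filter only through transgenic libraries. The more abundant Hk1 (0.38, adjusted p = 0.0966) and Tpi1 (0.19, adjusted p = 0.14) were not called. The 1 member that fell was Pfkm, the muscle-type phosphofructokinase (-0.48 ± 0.16, adjusted p = 0.0427), named after its value was seen. With lane as a term 15 higher and 0 lower were called, and without TRACK-VAD 1 and 2 18 higher and 0 lower. The list score was 1.15, 0.95, 1.19 and 1.42 in TRACK-VAD 1 to 4. Pfkm was no longer called without TRACK-VAD 1 or any WT-VAD library (adjusted p = 0.0761 to 0.114). Pfkm had a log2 fold change of -0.30 without TRACK-VAD 2.

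Of 29 other HIF targets measured, 17 rose and 1 fell, with a median of 0.75. Of the 24 members that reached 1 FPKM in a wild-type library, 15 rose. In the 7 deficient-diet libraries alone, 16 of the 29 were called higher and 0 lower. Car9, the membrane carbonic anhydrase that is a tissue marker of clear cell carcinoma, read 44.2, 41.8, 56.2 and 69.9 scaled FPKM in TRACK-VAD 1 to 4 and 6.31, 6.94 and 4.74 scaled FPKM in WT-VAD 1 to 3. No library overlapped and the highest was TRACK-VAD 4 (log2 fold change 2.93 ± 0.18 (SE), limma adjusted p = 4.04e-07). Stc2, a secreted stanniocalcin, rose (log2 fold change 2.19 ± 0.19, adjusted p = 1.26e-05), as did Cox4i2, the subunit of cytochrome c oxidase used in low oxygen (1.90 ± 0.22, adjusted p = 0.000154). Both were under 1 FPKM in every wild-type library and passed the filter only through transgenic libraries. Car12, another membrane carbonic anhydrase, fell (-0.70 ± 0.21, adjusted p = 0.0306; named after its value was seen). Plin2, the coat protein of lipid droplets, read 854, 1067, 286 and 386 in TRACK-VAD 1 to 4 against 368, 374 and 351 in WT-VAD 1 to 3 scaled FPKM and was not called (log2 fold change 0.63 ± 0.35 (SE), limma adjusted p = 0.206). TRACK-VAD 1 and 2 were high and TRACK-VAD 3 and 4 within or near the wild-type range. The abundant members Ndrg1 (-0.06, adjusted p = 0.77) and Angptl4 (0.21, adjusted p = 0.454) were not called. With lane as a term 16 higher and 0 lower were called, and without TRACK-VAD 1 and 2 16 higher and 0 lower. Scores in TRACK-VAD 1 to 4 were 1.0, 1.03, 0.96 and 1.16, a narrower spread than those of the tubule lists. Car12 was no longer called without TRACK-VAD 1 or any WT-VAD library (adjusted p = 0.0705 to 0.0872).

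Genes of the integrated stress response, the ATF4-driven program that also answers mitochondrial stress, were mostly higher. Of 27 measured, 17 rose and none fell (median 0.76). Of the 21 members that reached 1 FPKM in a wild-type library, 12 rose. In the 7 deficient-diet libraries alone, 6 of the 27 were called higher and 0 lower. Aldh18a1, the first enzyme of proline synthesis, read 16, 10.5, 14.5 and 18.7 scaled FPKM in TRACK-VAD 1 to 4 and 1.09, 0.552 and 1.59 scaled FPKM in WT-VAD 1 to 3 (log2 fold change 2.95 ± 0.21 (SE), limma adjusted p = 1.69e-06). Aldh1l2, a mitochondrial folate enzyme, read 12.1, 5.25, 13.4 and 18.5 in TRACK-VAD 1 to 4 against 1.06, 0.366 and 0.513 in WT-VAD 1 to 3 scaled FPKM (log2 fold change 2.93 ± 0.30 (SE), limma adjusted p = 5.67e-05). Neither gene overlapped between groups and TRACK-VAD 4 was the highest for both. Aldh1l2 was under 1 FPKM in every wild-type library and passed the filter only through transgenic libraries. The pseudokinase gene Trib3 (2.25, adjusted p = 6.07e-05) and the transcription factor gene Atf5 (1.40, adjusted p = 0.00178) rose, as did Nupr1 (1.70, adjusted p = 0.00739), for which TRACK-VAD 1 and 2 had 40.4 and 43.5 and TRACK-VAD 3 and 4 had 11.7 and 13.1 scaled FPKM. The abundant members Slc3a2 (-0.06, adjusted p = 0.774), Cth (-0.40, adjusted p = 0.183) and Shmt2 (-0.22, adjusted p = 0.374) were not called. With lane as a term 3 higher and 0 lower remained called of 27. Of the 17 endoplasmic reticulum chaperone genes, 2 rose, Sdf2l1 (0.87, adjusted p = 0.0102) and Pdia6 (0.41, adjusted p = 0.0206), and the median was -0.04 or 0.16 without scaling. This count is near the 11.3% called higher over all genes. Of 17 mitochondrial chaperone and protease genes, 7 fell and none rose (median -0.20, or 0.01 without scaling, where 3 were lower and 1 higher). Over all genes 10.8% were called lower. The 7 deficient-diet libraries alone gave 2 lower and 0 higher in this list. Hspd1, the mitochondrial chaperonin, read 145, 119.8, 169.8 and 155 in TRACK-VAD 1 to 4 against 227, 249 and 263 in WT-VAD 1 to 3 scaled FPKM (log2 fold change -0.74 ± 0.11 (SE), limma adjusted p = 0.000675), with no overlap. Pmpcb, a processing peptidase subunit, fell by 0.69 ± 0.11 (adjusted p = 0.00138). Pdia6 was no longer called without WT-VAD 1 or 3 (adjusted p = 0.0512 to 0.0829).

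Fatty acid oxidation, the main fuel pathway of the proximal tubule, was lower. Of 29 genes 21 fell and none rose (median -0.43, -0.22 without scaling with 11 called), against 10.8% called lower over all genes tested. The 7 deficient-diet libraries alone gave 7 lower and 0 higher. Ehhadh, an enzyme of peroxisomal oxidation, read 725, 654, 914 and 743 scaled FPKM in TRACK-VAD 1 to 4 and 1549.7, 1887 and 1686 scaled FPKM in WT-VAD 1 to 3 (log2 fold change -1.17 ± 0.12 (SE), limma adjusted p = 4.84e-05). All its transgenic values lay far below the wild-type ones. Acaa1b (-1.35 ± 0.17, adjusted p = 0.000253), a peroxisomal thiolase with the close copy Acaa1a, and the carnitine transferase gene Cpt2 (-0.76 ± 0.11, adjusted p = 0.000702) fell too. Cyp4a14, an omega-hydroxylase, read 1181, 1094, 778 and 556 in TRACK-VAD 1 to 4 against 1410.0, 1993 and 1787 in WT-VAD 1 to 3 scaled FPKM (log2 fold change -0.98 ± 0.32 (SE), limma adjusted p = 0.0419). Here TRACK-VAD 3 and 4 were the lowest. The abundant mitochondrial gene Acadm read 837, 647, 1424 and 1426 in TRACK-VAD 1 to 4 against 1287, 1304 and 1361 in WT-VAD 1 to 3 scaled FPKM and was not called (log2 fold change -0.36 ± 0.23 (SE), limma adjusted p = 0.27). TRACK-VAD 1 and 2 were below and TRACK-VAD 3 and 4 above the wild-type values. Ech1 (-0.29, adjusted p = 0.0904) was not called either. The list, with TRACK-VAD 1 and 2 left out, had 0 higher and 20 lower, and with lane as a term 0 higher and 4 lower. Cyp4a14 was no longer called without TRACK-VAD 3 or 4 or any WT-VAD library (adjusted p = 0.0619 to 0.127).

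Of 20 TCA cycle genes 12 fell and none rose (median -0.38), but 5 were called without scaling, 5 without TRACK-VAD 1 and 2 and none with lane as a term. Dlst, a subunit of 2-oxoglutarate dehydrogenase, read 116, 109, 155 and 149.7 in TRACK-VAD 1 to 4 against 196, 206 and 178 in WT-VAD 1 to 3 scaled FPKM (log2 fold change -0.56 ± 0.12 (SE), limma adjusted p = 0.00625), and TRACK-VAD 1 and 2 were the lowest. Suclg2 and Sucla2, subunits of succinate-CoA ligase, fell (-0.48, adjusted p = 0.00178; -0.50, adjusted p = 0.00773). So did Mdh1 (-0.50, adjusted p = 0.0239), whereas Mdh2 (-0.22, adjusted p = 0.143), Sdhb (-0.30, adjusted p = 0.0834) and Sdha (-0.25, adjusted p = 0.353) were not called. Of 34 respiratory chain subunit genes 6 fell and none rose, with a median of -0.20, or 0.01 without scaling, where 3 were called. Among them were Ndufs1 (-0.60, adjusted p = 0.00779) of complex I, Uqcrfs1 (-0.46, adjusted p = 0.00939) of complex III and Atp5b (-0.37, adjusted p = 0.0374) of the ATP synthase, whose values were 2539.7, 2082, 2696 and 2602 in TRACK-VAD 1 to 4 against 3189, 3654 and 2797 in WT-VAD 1 to 3 scaled FPKM. The share of respiratory genes called, 6 of 34, was under the 22.1% of all genes. The 7 deficient-diet libraries alone gave 1 lower TCA cycle gene and 0 lower respiratory chain genes. Cox7b (0.02, adjusted p = 0.934) and Atp5a1 (-0.27, adjusted p = 0.144) were not called. Mdh1 was no longer called without TRACK-VAD 1 or WT-VAD 1 or 2 (adjusted p = 0.0611 to 0.082). Atp5b was no longer called without TRACK-VAD 1 or 2 or WT-VAD 1 or 2 (adjusted p = 0.0662 to 0.139).

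In the proximal tubule, the segment in which the transgene promoter is active, fewer than 1 in 2 of the listed genes were called lower, and few were called higher. Over all genes tested 10.8% were called lower and 11.3% higher. Of 29 transporter genes 13 fell and 1 rose (median -0.64). Of 23 enzyme genes 9 fell and none rose (median -0.59). Of 25 genes of gluconeogenesis and amino acid breakdown 10 fell and 1 rose (median -0.56). The 7 deficient-diet libraries alone gave 4, 6 and 3 lower genes in these 3 lists and 0 higher. Slc22a6, the organic anion transporter OAT1, read 91.2, 69.3, 178 and 177 scaled FPKM in TRACK-VAD 1 to 4 and 489, 455 and 430.5 scaled FPKM in WT-VAD 1 to 3 (log2 fold change -1.94 ± 0.26 (SE), limma adjusted p = 0.000467). Slc34a1, the phosphate transporter NPT2A, read 394, 280.1, 839 and 699.6 in TRACK-VAD 1 to 4 against 1438, 1322 and 1146 in WT-VAD 1 to 3 scaled FPKM (log2 fold change -1.36 ± 0.30 (SE), limma adjusted p = 0.00765). Neither overlapped, and in both TRACK-VAD 1 and 2 were the lowest. Slc22a8 (-1.54, adjusted p = 0.00243) and the dicarboxylate transporter gene Slc13a3 (-1.54, adjusted p = 0.00987) fell as well. Slco1a1, another organic anion transporter, read 53.3, 14.5, 113 and 144 in TRACK-VAD 1 to 4 against 223, 184 and 196 in WT-VAD 1 to 3 scaled FPKM (log2 fold change -1.72 ± 0.55 (SE), limma adjusted p = 0.0385). The 1 transporter that rose was the glucose transporter gene Slc5a1 (0.46, adjusted p = 0.0282), named after its value was seen. The endocytic receptor genes were not called. Lrp2 read 31.7, 27.7, 84.5 and 81.0 in TRACK-VAD 1 to 4 against 100.4, 91.3 and 94.3 in WT-VAD 1 to 3 scaled FPKM (log2 fold change -0.93 ± 0.32 (SE), limma adjusted p = 0.0505). Cubn, which encodes cubilin, read 20.5, 17.2, 48.3 and 47.2 in TRACK-VAD 1 to 4 against 46.5, 45.1 and 51.0 in WT-VAD 1 to 3 scaled FPKM (log2 fold change -0.64 ± 0.29 (SE), limma adjusted p = 0.124). TRACK-VAD 1 and 2 had far lower Lrp2 than the wild-type libraries and TRACK-VAD 3 and 4 were just under them. Slc5a2 (-0.30, adjusted p = 0.457) and Ggt1 (-0.52, adjusted p = 0.101) were not called. In bulk cortex, fewer cells of a type and less RNA per cell cannot be told apart. Slco1a1 was no longer called without TRACK-VAD 1 or any WT-VAD library (adjusted p = 0.0825 to 0.104). Slc5a1 was no longer called without WT-VAD 2 or 3 (adjusted p = 0.0693 to 0.107). Slco1a1 had a log2 fold change of -1.06 without TRACK-VAD 2.

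Among the enzymes, Acsm2, a medium-chain acyl-CoA synthetase of the proximal tubule, read 1039, 756, 1682 and 1486 scaled FPKM in TRACK-VAD 1 to 4 and 3656, 3417 and 3006 scaled FPKM in WT-VAD 1 to 3 (log2 fold change -1.5 ± 0.21 (SE), limma adjusted p = 0.000673). Cyp2e1 (-1.81 ± 0.31, adjusted p = 0.00234), Cyp4b1 (-1.44 ± 0.25, adjusted p = 0.00262) and Keg1 (-1.24 ± 0.21, adjusted p = 0.00192) fell as well. In amino acid breakdown, the alanine aminotransferase gene Gpt read 2.84, 2.01, 7.94 and 6.60 in TRACK-VAD 1 to 4 against 19.2, 24.0 and 15.8 in WT-VAD 1 to 3 scaled FPKM (log2 fold change -1.95 ± 0.31 (SE), limma adjusted p = 0.00141). The groups were apart and TRACK-VAD 1 and 2 the lowest. Prodh of proline breakdown (-1.19, adjusted p = 0.0028) and Aass of lysine breakdown (-1.12, adjusted p = 0.0115) fell. Pck1, the rate-limiting enzyme of gluconeogenesis, read 1031, 644, 2633 and 2516 in TRACK-VAD 1 to 4 against 2972, 3015 and 3245 in WT-VAD 1 to 3 scaled FPKM and was not called (log2 fold change -1.09 ± 0.38 (SE), limma adjusted p = 0.0556). TRACK-VAD 1 and 2 were far below and TRACK-VAD 3 and 4 closer to the wild-type values. Fbp1 (-0.12, adjusted p = 0.603) and Pcx (-0.40, adjusted p = 0.0685) were not called. In TRACK-VAD 3 and 4 against WT-VAD, the transporter list had 2 higher and 9 lower, the enzyme list 1 higher and 7 lower and the gluconeogenesis and amino acid list 2 higher and 5 lower. With lane as a term, 1 higher and no lower gene of these 3 lists was called. Scores of the gluconeogenesis and amino acid list in TRACK-VAD 1 to 4 were -0.86, -1.10, -0.20 and -0.34.

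Other nephron segments showed few calls. Among 20 loop of Henle and distal segment genes 2 rose, the claudin gene Cldn16 (0.47, adjusted p = 0.0212) and the prostaglandin receptor gene Ptger3 (0.35, adjusted p = 0.0487), and of 16 collecting duct genes none was called. Over all genes tested 11.3% were called higher. The medians were -0.02 and -0.18, or 0.15 and 0.03 without scaling. The libraries nevertheless differed. Egf, made in the distal convoluted tubule, read 188, 174, 701 and 726 in TRACK-VAD 1 to 4 against 575, 498 and 541 in WT-VAD 1 to 3 scaled FPKM (log2 fold change -0.58 ± 0.43 (SE), limma adjusted p = 0.346). Slc12a1, the salt transporter of the thick ascending limb, read 106, 76.3, 319.7 and 233 in TRACK-VAD 1 to 4 against 222, 152 and 224 in WT-VAD 1 to 3 scaled FPKM (log2 fold change -0.32 ± 0.38 (SE), limma adjusted p = 0.572). TRACK-VAD 1 and 2 were below and TRACK-VAD 3 and 4 above all wild-type libraries in both genes. Umod (0.18, adjusted p = 0.49), Slc12a3 (-0.10, adjusted p = 0.673), Calb1 (0.15, adjusted p = 0.687), Aqp2 (0.34, adjusted p = 0.432), Aqp3 (-0.44, adjusted p = 0.0943) and Slc4a1 (-0.39, adjusted p = 0.467) were not called. Scores in TRACK-VAD 1 to 4 were -0.16, -0.49, 0.25 and 0.20 for the loop and distal list and -0.18, -0.58, 0.21 and 0.07 for the collecting duct list. Of 11 podocyte genes 2 rose, among them Synpo (0.49, adjusted p = 0.047), while Nphs1 (adjusted p = 0.997) and Podxl (0.16, adjusted p = 0.424) were not called. Cldn16 was no longer called without TRACK-VAD 1 or WT-VAD 1 or 3 (adjusted p = 0.0577 to 0.0729). Ptger3 was no longer called without TRACK-VAD 1, 2 or 3 or WT-VAD 1 or 2 (adjusted p = 0.0802 to 0.181). Synpo was no longer called without TRACK-VAD 1 or 2 or any WT-VAD library (adjusted p = 0.0888 to 0.113). Synpo had a log2 fold change of 0.32 without TRACK-VAD 2.

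Markers of tubular injury were higher in TRACK-VAD. Of 20 measured, 18 rose and none fell (median 1.5). Of the 17 members that reached 1 FPKM in a wild-type library, 15 rose. In the 7 deficient-diet libraries alone, 7 of the 20 were called higher and 0 lower. Summed over the list, the libraries held 1086 to 9513 in TRACK-VAD and 609.2 to 676.2 in WT-VAD (scaled FPKM). Much of this sum was 1 gene, Spp1, with 7814 of the 9513 in TRACK-VAD 2, 522 of 1086 in TRACK-VAD 3 and 312 of 676.2 in WT-VAD 2. Spp1, the secreted matrix protein osteopontin, read 1641, 7814, 522 and 434 scaled FPKM in TRACK-VAD 1 to 4 and 309, 312 and 291 scaled FPKM in WT-VAD 1 to 3 (log2 fold change 2.10 ± 0.71 (SE), limma adjusted p = 0.0481). Lcn2, which encodes NGAL, read 21.1, 83.3, 4.76 and 5.13 in TRACK-VAD 1 to 4 against 2.27, 2.15 and 1.98 in WT-VAD 1 to 3 scaled FPKM (log2 fold change 2.35 ± 0.68 (SE), limma adjusted p = 0.0274). Krt20, a keratin of injured tubule cells, read 4.51, 26.5, 1.75 and 2.58 in TRACK-VAD 1 to 4 against 0.254, 0.173 and 0.0999 in WT-VAD 1 to 3 scaled FPKM (log2 fold change 2.40 ± 0.56 (SE), limma adjusted p = 0.0102). In these 3 genes, as in Havcr1 above, TRACK-VAD 2 was the highest and TRACK-VAD 1 next, and TRACK-VAD 3 and 4 lay closer to, yet above, the wild-type libraries. Krt20 was under 1 FPKM in every wild-type library and passed the filter only through transgenic libraries. The ceruloplasmin gene Cp (2.14 ± 0.33, adjusted p = 0.00108) and Cdkn1a (2.14 ± 0.25, adjusted p = 0.00015), an inhibitor of the cell cycle, rose as well. Cdkn1a read 28.9, 48.4, 17.1 and 21.2 in TRACK-VAD 1 to 4 against 5.72, 5.03 and 5.18 in WT-VAD 1 to 3 scaled FPKM. Clu (0.24, adjusted p = 0.395) and Krt8 (0.06, adjusted p = 0.705) were not called. Without TRACK-VAD 1 and 2 there were 13 higher and 0 lower, with a median of 0.94; with lane as a term 2 were higher. Spp1 was no longer called without TRACK-VAD 1 or any WT-VAD library (adjusted p = 0.103 to 0.114). Lcn2 was no longer called without TRACK-VAD 1 or any WT-VAD library (adjusted p = 0.0669 to 0.0755). Spp1 had a log2 fold change of 1.24 without TRACK-VAD 2. Lcn2 had a log2 fold change of 1.56 without TRACK-VAD 2.

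**Figure D3:**
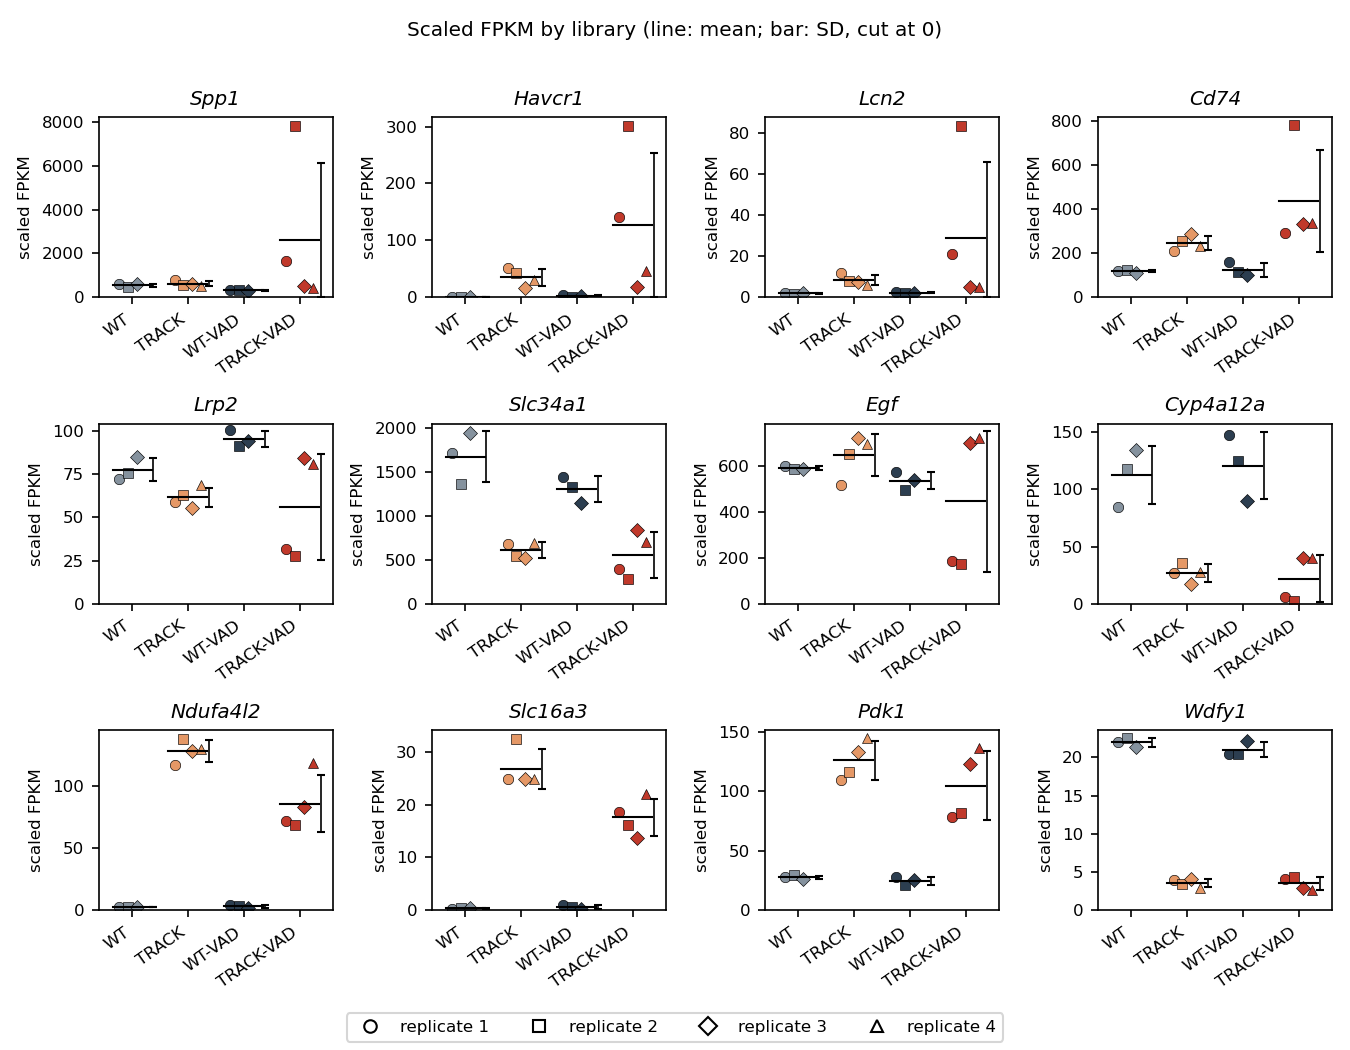
Scaled FPKM of 12 genes in the 14 libraries, with the group mean as a line and the SD as a bar. Marker shape gives the replicate number, which is not used to link libraries of different groups. In the upper rows TRACK-VAD 1 and 2 part from TRACK-VAD 3 and 4 in Spp1, Havcr1, Lcn2, Lrp2, Slc34a1, Egf and Cyp4a12a, whereas in the lowest row all 4 TRACK-VAD libraries stand clear of both wild-type groups.

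Markers of immune cells rose with the injury genes. Of 20 macrophage and dendritic cell genes 19 rose and none fell (median 1.42). Of the 18 members that reached 1 FPKM in a wild-type library, 18 rose. In the 7 deficient-diet libraries alone, 14 of the 20 were called higher and 0 lower. Their levels summed to 963 to 2397 in TRACK-VAD and 328.5 to 466.5 in WT-VAD. Cd74, the invariant chain of MHC class II, read 291, 781, 331 and 336 scaled FPKM in TRACK-VAD 1 to 4 and 158, 112 and 99.9 scaled FPKM in WT-VAD 1 to 3 (log2 fold change 1.71 ± 0.27 (SE), limma adjusted p = 0.00141). The groups did not overlap, and TRACK-VAD 2 had more than any other library. Lyz2 (1.80, adjusted p = 0.00282), Cd14 (2.04, adjusted p = 0.0119), Cd68 (1.41, adjusted p = 0.00128) and H2-Ab1 (1.83, adjusted p = 0.000687) rose likewise. Csf1r, the receptor that macrophages need to survive, read 12.3, 13.2, 14.5 and 16.9 in TRACK-VAD 1 to 4 against 9.77, 7.33 and 8.30 in WT-VAD 1 to 3 scaled FPKM (log2 fold change 0.69 ± 0.12 (SE), limma adjusted p = 0.00209), with a narrow transgenic range. Of 18 lymphocyte genes listed, 17 were in the table and 12 passed the filter, 5 of them only through transgenic libraries; of the other 7, 6 rose. Levels of the list summed to 72.56 to 276.2 in TRACK-VAD and 32.34 to 50.9 in WT-VAD. The 7 deficient-diet libraries alone gave 1 higher and 0 lower of the 12 lymphocyte genes. The chemokine gene Ccl5 (2.06, adjusted p = 0.00643) and Mzb1 of plasma cells (1.09, adjusted p = 0.0103) rose. Jchain, the joining chain of antibodies, read 42.6, 85.1, 157 and 248 in TRACK-VAD 1 to 4 against 19.1, 43.7 and 26.2 in WT-VAD 1 to 3 scaled FPKM (log2 fold change 1.93 ± 0.49 (SE), limma adjusted p = 0.0154). TRACK-VAD 3 and 4 were the highest for Jchain, and TRACK-VAD 1 lay within the wild-type range. Of 3 neutrophil genes that passed the filter 1 rose, Retnlg (0.96, adjusted p = 0.0377), which was under 1 FPKM in every wild-type library, while S100a8 (0.59, adjusted p = 0.188) and S100a9 (0.96, adjusted p = 0.0763) were not called. Mpo and Elane were listed at 0 in all 7 libraries. With TRACK-VAD 1 and 2 left out, the macrophage list had 18 higher and 0 lower and the lymphocyte list 7 higher and 0 lower. With lane as a term 1 and 2 members were called higher. Scores of the macrophage list in TRACK-VAD 1 to 4 were 1.12, 2.15, 0.97 and 1.08. The part of immune cells in the changes of tubule genes was not tested. Jchain was no longer called without WT-VAD 1 or 3 (adjusted p = 0.0504 to 0.0654). Retnlg was no longer called without TRACK-VAD 1 or 2 or any WT-VAD library (adjusted p = 0.0656 to 0.136).

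Of 22 interferon response genes 19 rose and none fell (median 1.11). The 7 deficient-diet libraries alone gave 11 higher and 0 lower. Cxcl10, an interferon-induced chemokine, read 17.5, 14.2, 8.81 and 7.65 in TRACK-VAD 1 to 4 against 3.38, 3.23 and 1.99 in WT-VAD 1 to 3 scaled FPKM (log2 fold change 1.71 ± 0.25 (SE), limma adjusted p = 0.000886). The GTPase genes Gbp2 (1.62, adjusted p = 0.0091) and Iigp1 (1.42, adjusted p = 0.0127) and the immunoproteasome genes Psmb8 (1.44, adjusted p = 0.00463) and Psmb9 (1.45, adjusted p = 0.00442) rose. Without TRACK-VAD 1 and 2 there were 18 higher and 0 lower, whereas none was called with lane as a term. Of 17 endothelial genes 9 rose (median 0.42; summed level 360.1 to 547.9 in TRACK-VAD and 275.6 to 286.3 in WT-VAD). Emcn, a sialomucin of capillaries and veins, read 99.7, 107, 66.4 and 69.7 in TRACK-VAD 1 to 4 against 44.3, 41.4 and 40.5 in WT-VAD 1 to 3 scaled FPKM (log2 fold change 0.98 ± 0.14 (SE), limma adjusted p = 0.000861). Pecam1 (0.76, adjusted p = 0.00435) and the angiopoietin receptor gene Tek (0.56, adjusted p = 0.00362) rose, but the VEGF receptor genes Kdr (0.12, adjusted p = 0.716) and Flt1 (0.09, adjusted p = 0.784) were not called. Of 18 fibroblast and matrix genes 6 rose and 1 fell (median 0.48; summed level 751.2 to 1288 in TRACK-VAD and 741.8 to 884.9 in WT-VAD). Fn1, fibronectin (1.21, adjusted p = 0.00302), and Acta2, smooth muscle actin (0.98, adjusted p = 0.00671), were among the risen and Timp3 (-0.69, adjusted p = 0.0218) was the one that fell. Col1a1 (-0.01, adjusted p = 0.978) and Dcn (0.78, adjusted p = 0.14) were not called. Over all genes tested 11.3% were called higher. In the 7 deficient-diet libraries alone, 3 endothelial genes and 1 fibroblast and matrix gene were called higher. The fibroblast list, with TRACK-VAD 1 and 2 left out, had 4 higher and 0 lower. Timp3 was no longer called without TRACK-VAD 1 or WT-VAD 1 or 3 (adjusted p = 0.0593 to 0.0793).

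**Figure D4:**
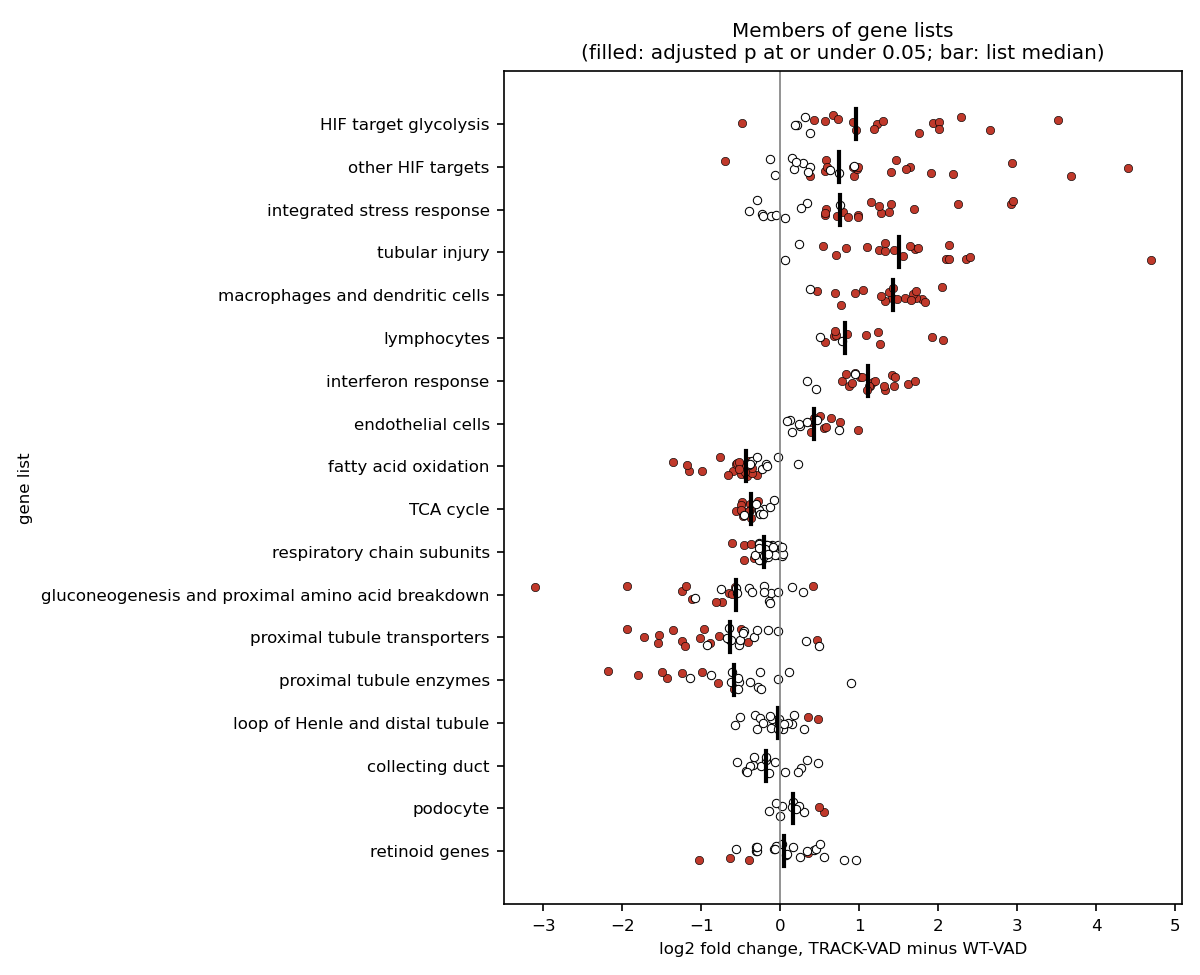
Log2 fold change of every tested member of 18 gene lists, TRACK-VAD minus WT-VAD; filled points are called, open points are not, black bars are list medians and the grey line is the median of all genes tested. The medians of the HIF, stress response, injury and immune lists lie to the right of the line and those of the fatty acid oxidation, TCA cycle and proximal tubule lists to the left, while loop of Henle, collecting duct, podocyte and retinoid genes straddle it.

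Retinoid genes were mostly uncalled. Of 24 measured, 1 rose and 3 fell, below the 22.1% of all genes, with a median of 0.05. Bco2, which cleaves carotenoids, read 2.92, 1.95, 4.16 and 4.75 scaled FPKM in TRACK-VAD 1 to 4 and 7.39, 7.87 and 8.08 scaled FPKM in WT-VAD 1 to 3 (log2 fold change -1.03 ± 0.17 (SE), limma adjusted p = 0.00185). The groups were apart, with TRACK-VAD 2 the lowest. The retinol dehydrogenase gene Rdh5 (-0.64, adjusted p = 0.00947) and the retinaldehyde reductase gene Dhrs3 (-0.39, adjusted p = 0.0147) fell, and the retinoic acid receptor gene Rara rose (0.36, adjusted p = 0.0304). Adh1, which oxidises retinol, read 262, 205, 367 and 394 in TRACK-VAD 1 to 4 against 510.0, 431 and 381 in WT-VAD 1 to 3 scaled FPKM and was not called (log2 fold change -0.56 ± 0.19 (SE), limma adjusted p = 0.0508). Neither was Ttr (0.26, adjusted p = 0.689), the carrier of retinol-binding protein, nor the retinoic acid target Tgm2 (-0.29, adjusted p = 0.119). Of 27 plasma protein genes known from liver 4 rose and 5 fell (median -0.34). The apolipoprotein gene Apoa4 read 40.4, 22.6, 82.5 and 133 in TRACK-VAD 1 to 4 against 9.80, 5.44 and 6.53 in WT-VAD 1 to 3 scaled FPKM (log2 fold change 2.84 ± 0.43 (SE), limma adjusted p = 0.00108). The prothrombin gene F2 read 18.2, 7.64, 14.4 and 28.4 in TRACK-VAD 1 to 4 against 1.70, 1.24 and 1.40 in WT-VAD 1 to 3 scaled FPKM (log2 fold change 2.76 ± 0.29 (SE), limma adjusted p = 6.40e-05). Neither overlapped between groups, and Apoc3 and Igfbp2 above are the others that rose. Besides Alb and Apoh, the haem carrier gene Hpx (-1.5, adjusted p = 0.0366), Ambp (-0.82, adjusted p = 0.0376) and Vtn (-1.01, adjusted p = 0.0305) fell; these 3 were named after their values were seen. Among plasma protein genes there were, with TRACK-VAD 1 and 2 left out, 5 higher and 1 lower, and with lane as a term 4 higher and 0 lower. Dhrs3 was no longer called without WT-VAD 1 (adjusted p = 0.0649). Rara was no longer called without TRACK-VAD 1 or 2 or WT-VAD 2 or 3 (adjusted p = 0.0743 to 0.109). Hpx was no longer called without TRACK-VAD 1 or 2 or any WT-VAD library (adjusted p = 0.0728 to 0.0993). Ambp was no longer called without TRACK-VAD 1 or 2 or any WT-VAD library (adjusted p = 0.0721 to 0.102). Vtn was no longer called without TRACK-VAD 1 or 2 or any WT-VAD library (adjusted p = 0.0575 to 0.115).

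The 12 genes that varied most among the TRACK-VAD libraries, with a mean of at least 5 scaled FPKM there, were Gm6020, Bcat1, Spp1, Pzp, Zfp865, Lcn2, Cyp4a12a, 8430408G22Rik, Havcr1, Cyp7b1, Fgg and Fgb, by SD of the log2 values. In all of them except Gm6020 and Zfp865, TRACK-VAD 1 and 2 lay on one side and TRACK-VAD 3 and 4 on the other. Bcat1, the cytosolic branched-chain aminotransferase, read 2.65, 0.996, 42.3 and 25.3 in TRACK-VAD 1 to 4 against 10.3, 7.99 and 10.9 in WT-VAD 1 to 3 scaled FPKM. Its wild-type values lay between the pairs, and the group difference was not called (log2 fold change -0.16 ± 0.87 (SE), limma adjusted p = 0.915). Cyp7b1, an oxysterol hydroxylase of male mouse kidney, read 70.7, 13.3, 157 and 189 in TRACK-VAD 1 to 4 against 128, 100 and 136 in WT-VAD 1 to 3 scaled FPKM, and TRACK-VAD 2 was the lowest library (log2 fold change -0.70 ± 0.67 (SE), limma adjusted p = 0.474). The fibrinogen gene Fgg read 54.8, 168, 15.3 and 14 in TRACK-VAD 1 to 4 against 11.1, 11.6 and 16.9 in WT-VAD 1 to 3 scaled FPKM (log2 fold change 1.48 ± 0.63 (SE), limma adjusted p = 0.107). Fgb, another fibrinogen chain, followed it with 6.95, 26.8, 1.98 and 1.58 in TRACK-VAD 1 to 4 against 2.45, 1.96 and 2.21 in WT-VAD 1 to 3 scaled FPKM (log2 fold change 1.0 ± 0.62 (SE), limma adjusted p = 0.261). For both fibrinogen genes TRACK-VAD 2 was the highest and TRACK-VAD 3 and 4 were within or near the wild-type range. The gene 8430408G22Rik read 158, 100.5, 11 and 18.6 in TRACK-VAD 1 to 4 against 17.7, 14.3 and 7.10 in WT-VAD 1 to 3 scaled FPKM (log2 fold change 1.74 ± 0.77 (SE), limma adjusted p = 0.119). Zfp865 read 54.3, 3.89, 64.0 and 71.6 in TRACK-VAD 1 to 4 against 59.0, 139 and 55.3 in WT-VAD 1 to 3 scaled FPKM, a low value in TRACK-VAD 2 alone (log2 fold change -1.21 ± 1.02 (SE), limma adjusted p = 0.413). Gm6020 was listed at 0 in TRACK-VAD 1 to 3 and WT-VAD 1 and read 166 in TRACK-VAD 4 and 147 and 162 scaled FPKM in WT-VAD 2 and 3, all 3 of lane 6. It was listed at 0 in all 7 chow libraries.

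Set beside the chow diet, where TRACK and WT share no library with this comparison, the transgene effect was largely of the same direction. On chow limma called 2087 genes (17%), 1082 higher (8.83%) and 1005 lower (8.2%). The same direction was called on both diets in 1269 genes, 46.9% of the deficient-diet and 60.8% of the chow calls, and 4 were called in opposite directions. The median of the HIF glycolysis list was 0.95 on the deficient diet and 1.30 on chow, that of the tubular injury list 1.5 and 1.04, and that of the proximal tubule transporter list -0.64 and -0.49. The test of the difference between diets called 1 gene (0.00816%), with 989 at an unadjusted p at or under 0.05 (8.07%). That gene was Aox1, an aldehyde oxidase that can make retinoic acid, with 0.400, 0.298, 0.275 and 0.385 scaled FPKM in TRACK-VAD 1 to 4 and 0.115, 0.179 and 0.193 scaled FPKM in WT-VAD 1 to 3. On chow it read 1.41, 1.3, 1.5 and 1.46 scaled FPKM in TRACK 1 to 4 and 0.0418, 0.0700 and 0.0779 scaled FPKM in WT 1 to 3. The log2 fold change was 0.20 on the deficient diet and 1.19 on chow, a difference of -0.98 ± 0.12 (SE, adjusted p = 0.0173). It was not called with a pseudocount of 0.1 FPKM, with lane as a term or with the replicate block. Nor was it called without TRACK-VAD 3, WT-VAD 2 or 3, TRACK 1, 2 or 4, or WT 1 or 3, each left out alone (adjusted p = 0.051 to 0.0987). Its highest level on the deficient diet was 0.400 scaled FPKM, so the pseudocount of 1 weighs on both fold changes. Aox1 passed the filter only through the 4 TRACK libraries on chow, the group in which it was high, so its call is no independent result. The next smallest p-values were not past the threshold. Rbp4, the retinol-binding protein of plasma, read 10.7, 4.39, 10.8 and 19.2 scaled FPKM in TRACK-VAD 1 to 4 and 10.5, 9.15 and 10.1 scaled FPKM in WT-VAD 1 to 3, with overlapping groups. On chow it read 44.9, 47.7, 39.7 and 42.4 scaled FPKM in TRACK 1 to 4 and 5.90, 3.31 and 1.83 scaled FPKM in WT 1 to 3, with TRACK above. Its log2 fold changes were 0.02 and 3.35 (adjusted p of the difference = 0.0747). F2 had 2.76 and 5.36 (0.0819), the carboxypeptidase gene Cpb2 1.20 and 3.32 (0.0819) and the transcription factor gene Sp3 0.19 and -0.44 (0.224). Spp1 had 2.10 and 0.18, and its difference was not called (0.636). WT-VAD and WT differ in lane number as well as diet, so lane and diet cannot be told apart in these differences.

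**Figure D5:**
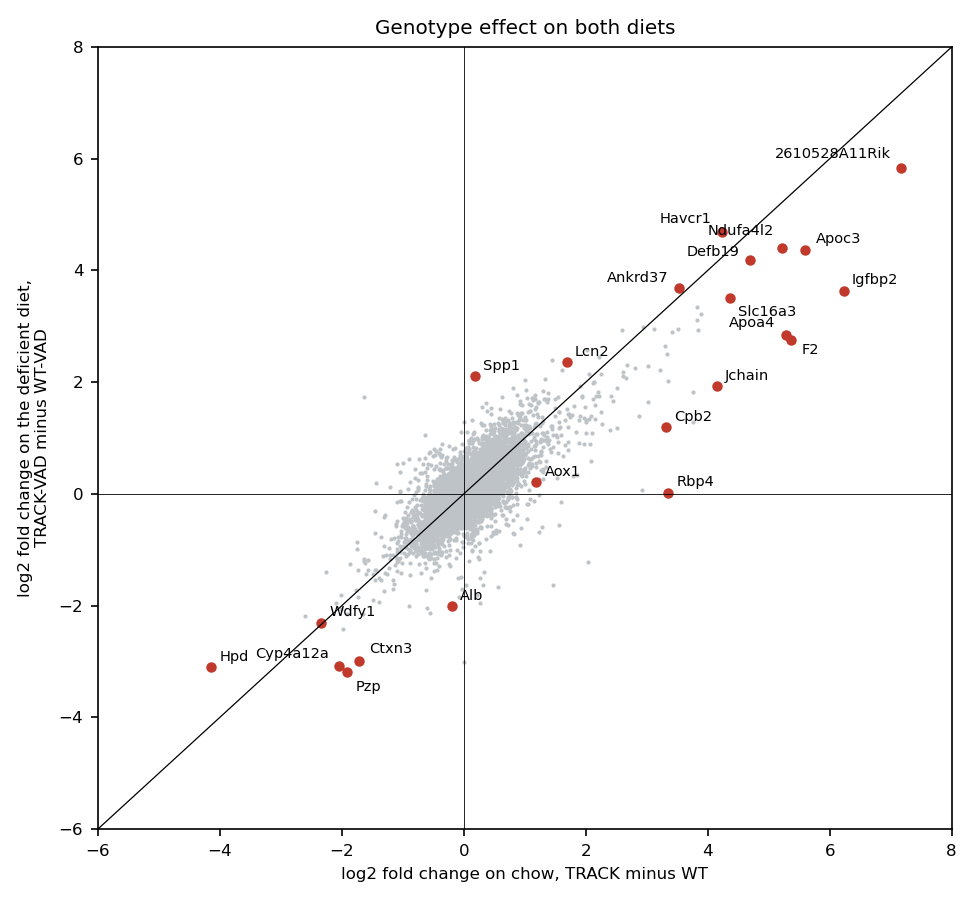
Log2 fold change of each of the 12251 genes tested on chow (TRACK minus WT, horizontal) and on the deficient diet (TRACK-VAD minus WT-VAD, vertical); the diagonal marks equal effects and red points are genes named in the text. Igfbp2, F2, Apoa4, Cpb2 and Rbp4 lie below the diagonal on the right, Spp1 above it, and Wdfy1 on it.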

How the data were processed

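RNA of kidney cortex was read as 51-base single-end reads, per the labels' protocols. The authors deposited FPKM for 22053 rows with 22007 gene IDs. They also deposited a table of their own comparison, which per the file headers holds log2 fold changes and p-values; it was used only where named. The submitters' processing notes name DESeq 1.32 and mm9, but of the table's gene IDs 21764 were in GENCODE vM21 (GRCm38) and 21749 overlapped that gene. The sources used here name no aligner, no program for FPKM and no strand setting, so overlapping or near-identical genes may share reads. The table held 6 columns that match no library label; they were not used.

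A gene was kept when 3 libraries or more reached 1 FPKM (12268 genes). From these, 17 with an isolated 0 were left out, where 1 library was listed at 0 although another of the same group, and 7 or more of all libraries, reached 5 FPKM. Scale factors were means of log ratios to a reference library after trimming 30% of the ratios and 5% of the levels at each end; Gpx3 alone made up 62.8% to 71.2% of the FPKM sum. Limma 3.58.1 (R 4.3.3, empirical Bayes with a mean-variance trend, two-sided) was fitted on log2(scaled FPKM + 1) with the 14 libraries in a model of 4 group means. Because the pseudocount is 1 FPKM, fold changes of low genes are understated. No counting interval is given, since depth is unknown; 6529 low genes gave relative depths that fitted 86 of 91 library pairs within 0.1 (log2). P-values measure the spread between libraries labelled as biological replicates, pooled per gene over the 14 libraries. The chow groups, whose spread was smaller than that of TRACK-VAD, therefore enter each SE and p of the deficient-diet comparison. The procedure was tested on simulated data with TRACK-VAD against WT-VAD changed: 92% of 100 genes changed by 1 (log2) and 99% of 100 changed by 2 were called among 12251 genes, with 9 false calls. The simulated noise was independent between genes, with the same SD in every group and no lane effect, and the changed genes had a mean above 5 scaled FPKM. The real TRACK-VAD libraries were more spread and lane nearly follows genotype, so these rates are not error rates of the real calls. Python 3.11.15 and matplotlib 3.10.9 drew the plots.

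The comparison and the 32 gene lists were chosen with earlier results of these data known. Named genes were the 12 largest increases and decreases among called genes without overlap and with a group mean of at least 5 scaled FPKM, up to 5 called and 3 uncalled members per list, the genes with the smallest p for the difference between diets, the 12 with the largest SD in TRACK-VAD, and marker genes; some genes that the rule names are not reported here. Others are marked as named after their values were seen. Alternatives were no scaling, median-ratio factors, pseudocounts of 0.1 and 5 FPKM, no filter or a filter of 5 FPKM, the isolated zeros kept, 7 libraries only, a replicate block, a lane term, library weights, a robust fit, and each library left out in turn; leaving out TRACK-VAD 1 and 2 together was added after the data were seen. A list score is the mean over its genes of the log2 deviation from the WT-VAD mean.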

Additional observations from a re-analysis of the deposited data

Results flagged for a closer look

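In 213 genes and list scores, the distance from the highest or lowest of the 4 TRACK-VAD libraries to the nearest other was taken as a share of their range. Genes were taken in scaled FPKM and not on the log2 scale, and list scores on the log2 scale. Dixon's 95% critical value for 4 samples was exceeded in 13, near the 1 in 20 that chance gives. Some of the genes were chosen for their spread among these same libraries, and genes of a list vary together, so the flags are a description only. TRACK-VAD 2 was the highest in 9 of them. Among injury markers the share was 0.836 for Spp1, 0.888 for Krt20 and 0.916 for Clu. Clu, a secreted chaperone, read 135, 218, 127 and 133 in TRACK-VAD 1 to 4 against 127, 147 and 108 in WT-VAD 1 to 3 scaled FPKM. Among immune genes it was 0.907 for Cd74, 0.928 for H2-Ab1, 0.892 for Lyz2 and 0.850 for Ccl5. H2-Ab1, an MHC class II chain, read 125, 313, 138 and 126 in TRACK-VAD 1 to 4 against 56.0, 44.4 and 35.6 in WT-VAD 1 to 3 scaled FPKM. The score of the macrophage and dendritic cell list had 0.877 and that of the fibroblast and matrix list 0.830. TRACK-VAD 4 was the highest in Acly, which makes cytosolic acetyl-CoA, with 67.0, 65.1, 66.7 and 82.9 in TRACK-VAD 1 to 4 against 43.4, 43.0 and 47.0 in WT-VAD 1 to 3 scaled FPKM and a share of 0.896. It was also the highest in Rdh5, with 13.1, 12.6, 12.7 and 16.6 in TRACK-VAD 1 to 4 against 18.8, 27.6 and 20.1 in WT-VAD 1 to 3 scaled FPKM and a share of 0.886, and in Gm6020, with a share of 1. TRACK-VAD 3 had the lowest score of the cell cycle list, with 0.31, 0.31, 0.10 and 0.30 in TRACK-VAD 1 to 4 and a share of 0.911. Aox1 was the single gene whose genotype effect passed the test of a difference between diets in limma, by -0.98 (log2) on the deficient diet relative to chow, with adjusted p = 0.0173. It passed the filter only through the TRACK libraries on chow, and the call was lost under several settings given above.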

How the results depend on the processing

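Depth is unknown, and lane and genotype nearly coincide in this comparison. For 1380 higher and 1327 lower genes, the counts were 2660 and 558 without scaling, 352 and 216 with the 7 deficient-diet libraries alone, 166 and 55 with lane as a term, and 740 and 544 without TRACK-VAD 1 and 2. A filter of 5 FPKM gave 812 higher genes and library weights 838 lower ones. With 1 library left out, between 791 and 1709 genes were higher and between 751 and 1745 lower. Median-ratio factors, both pseudocounts, no filter, kept zeros and a robust fit left both counts within 1.5 times. The number of genes whose effect differed between diets, 1, was 4 without scaling, 0 and 3 with pseudocounts of 0.1 and 5 FPKM, 0 with a filter of 5 FPKM, 0 with lane as a term, 3 with library weights, 3 without TRACK-VAD 1 and 2, and between 0 and 7 with 1 library left out. Genes with an SD over 1 among TRACK-VAD libraries, 95, numbered 260 and 38 with pseudocounts of 0.1 and 5 FPKM and between 62 and 150 with 1 library left out. The replicate block gave 1557 higher and 1559 lower genes and 0 that differed between diets. Deviations of equally numbered TRACK-VAD and WT-VAD libraries correlated at -0.096, 0.142 and 0.133, and those of unequal numbers at -0.187 to 0.215. Equally numbered TRACK-VAD and TRACK libraries gave 0.382, -0.142, 0.027 and 0.202. With so few libraries per group these values cannot decide whether the numbers pair mice. Of the 181 genes named with values, none called changed its sign under these settings. The call was lost for 83 with lane as a term, 53 with the 7 libraries alone, 27 without TRACK-VAD 1 and 2, 23 with library weights, 14 with no filter, 8 without scaling, and between 2 and 27 with 1 library left out. Effects also shrank: the injury list median of 1.5 was 0.90 with lane as a term and 0.94 without TRACK-VAD 1 and 2. The cause of the losses was not tested.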

Other observations

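The lists not described above are given here beside the 22.1% called over all genes, and the shares called in the lipid, clock, cell cycle and Y-linked lists were near or under it. Of 17 genes that differ between the sexes in mouse kidney, 10 were lower and 1 higher (median -0.98), and several of them also stand among the proximal tubule lists. The list mixes genes known as higher in males with genes known as higher in females, and these counts were not split by that direction. They therefore cannot decide whether there was a shift towards either sex. The higher one was Slc7a12, an amino acid transporter gene, with 11.4, 8.08, 9.32 and 10.6 scaled FPKM in TRACK-VAD 1 to 4 and 0.888, 0.636 and 0.942 scaled FPKM in WT-VAD 1 to 3 (log2 fold change 2.57 ± 0.29 (SE), limma adjusted p = 0.000116). No library overlapped the other group. With lane as a term none of the 17 was lower (median -0.38), and with TRACK-VAD 1 and 2 left out 7 were (median -0.48). List scores in TRACK-VAD 1 to 4 were -1.0, -1.64, -0.28 and -0.28. Of 4 Y-linked genes Uty was lower (-0.49, adjusted p = 0.0184). Ddx3y (-0.23, adjusted p = 0.25), Eif2s3y (0.05, adjusted p = 0.799) and Kdm5d (-0.06, adjusted p = 0.661) were not called. The median was -0.14, or 0.04 without scaling. Each of the 14 libraries had at least 11.7 (Ddx3y), 6.59 (Uty), 3.155 (Kdm5d) and 17.7 (Eif2s3y) deposited FPKM, so each held RNA of male tissue. Of 15 immediate early genes 7 rose (median 0.74), among them Atf3 (1.27, adjusted p = 0.00419) and Btg2 (1.22, adjusted p = 0.00327), and 5 of the 13 that reached 1 FPKM in a wild-type library rose. Atf3 was under 1 FPKM in every wild-type library and passed the filter only through transgenic libraries. In lipid and cholesterol synthesis Acly (0.65, adjusted p = 0.00168), Fasn (0.68, adjusted p = 0.0198), Elovl6 (0.57, adjusted p = 0.00935) and Sqle (0.45, adjusted p = 0.0167) rose; of 21 genes 5 rose and 1 fell. Of 18 clock genes Arntl (0.76, adjusted p = 0.0163), Nfil3 (0.68, adjusted p = 0.03) and Npas2 (0.57, adjusted p = 0.021) rose and Tef (-0.64, adjusted p = 0.0378) and Nr1d2 (-0.32, adjusted p = 0.0295) fell. Of 22 cell cycle genes listed 13 passed the filter. Ccnb2 (0.65, adjusted p = 0.0141) and Birc5 (0.40, adjusted p = 0.0284) rose, but both were under 1 FPKM in every wild-type library, and none of the 8 members that reached it was called. Uty was no longer called without TRACK-VAD 1 or WT-VAD 1 or 3 (adjusted p = 0.0501 to 0.0804). Fasn was no longer called without any WT-VAD library (adjusted p = 0.051 to 0.0642). Sqle was no longer called without WT-VAD 2 or 3 (adjusted p = 0.0552 to 0.067). Arntl was no longer called without WT-VAD 2 or 3 (adjusted p = 0.0595 to 0.0691). Nfil3 was no longer called without TRACK-VAD 1 or 2 or any WT-VAD library (adjusted p = 0.0512 to 0.113). Npas2 was no longer called without WT-VAD 2 or 3 (adjusted p = 0.073 to 0.0779). Tef was no longer called without TRACK-VAD 1 or 2 or any WT-VAD library (adjusted p = 0.0699 to 0.118). Nr1d2 was no longer called without TRACK-VAD 1 or 2 or WT-VAD 1 or 3 (adjusted p = 0.0553 to 0.127). Birc5 was no longer called without TRACK-VAD 2 or 4 or any WT-VAD library (adjusted p = 0.0513 to 0.0792).

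Markers of red, fat and adrenal cells, which a piece of cortex can carry along, were not called. Alb, taken as a marker of liver, was called lower as given above. Of 7 red cell genes none was called (median 0.70); Hba-a1, an alpha globin gene with the near-identical copy Hba-a2, read 199.8, 198, 48.9 and 70.3 in TRACK-VAD 1 to 4 against 68.6, 65.2 and 51.2 in WT-VAD 1 to 3 scaled FPKM (log2 fold change 0.81 ± 0.46 (SE), limma adjusted p = 0.216), and the list scores in TRACK-VAD 1 to 4 were 1.09, 1.10, -0.20 and 0.15. Of 10 fat cell genes 3 passed the filter and none was called. Fabp4, a fatty acid carrier of fat cells and capillaries, read 206, 377, 65.9 and 64.7 in TRACK-VAD 1 to 4 against 57.7, 64.7 and 64.7 in WT-VAD 1 to 3 scaled FPKM (log2 fold change 1.11 ± 0.57 (SE), limma adjusted p = 0.177). Lep was listed at 0 in all 7 libraries. Of 10 adrenal genes 2 passed the filter and none was called, and Cyp11b1 and Cyp11b2 were listed at 0 in all 7 libraries. The part of these cells in the differences between libraries was not tested.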
